A study of Homo sapiens with 22 samples.

Results

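Tumours given a drug that acts at or above RAS were compared with tumours given a drug that blocks MEK, in xenografts of the human lung adenocarcinoma line H2110. The comparison covers 16 of the 22 tumours in the series, chosen by their treatment labels. Its upstream arm holds 4 tumours on RMC-7977 at 10 mg/kg, an inhibitor of the active form of RAS proteins, and 4 tumours on RMC-4550 at 30 mg/kg, an inhibitor of the phosphatase SHP2. Its MEK arm holds 4 tumours on Trametinib at 0.3 mg/kg and 4 on Cobimetinib at 3 mg/kg. The other 6 tumours received Vehicle and serve here to place the levels. All 22 tumours were the same cell line, with the genotype labelled WT, had grown to about 300 mm³ before dosing by mouth, and were collected after 3 days, each giving 1 library of RNA. H2110 is 1 cell line, each drug was given at 1 dose, and the doses differ between drugs, so every difference below holds for these doses and this line. The labels number the tumours as replicates but do not say that each came from its own animal, so the p-values measure the spread between these tumours.

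SHP2, the product of PTPN11, relays signals from receptor tyrosine kinases to the exchange factors that load RAS with GTP. Active RAS proteins engage RAF kinases, which phosphorylate MEK, which phosphorylates ERK, but they also engage effectors outside this chain, such as PI3K and RalGDS family proteins. ERK in turn drives transcription of its own brakes, among them the DUSP phosphatases and Sprouty proteins, and of the ETS factors ETV4 and ETV5. The study's title concerns RIT1, a GTPase of the RAS family, as a target in lung adenocarcinoma. Setting drugs above RAF against drugs at MEK asks which transcripts differ between these treatments at the doses given. No drug was given at several doses, so the place of the block cannot be told apart from how far ERK output was lowered. Whether a difference depends on the place of the block was therefore not tested.

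The libraries held 7761987 to 17265754 counts in genes. Trametinib replicate 4 was the shallowest and stood apart: 25.98% of its counts fell in ribosomal protein genes, where the others had 3.076% to 9.861%, and 1.993% of its detected genes had only 1 or 2 counts, against 5.016% to 22.85%. Its median correlation with the other libraries was 0.751, against 0.933 to 0.977. RMC-7977 replicate 3 also had few low counts, at 5.016% of detected genes. Results are therefore given with and without Trametinib replicate 4. All 12 lung adenocarcinoma epithelium markers had enough counts to be tested, but their levels were unequal. EPCAM had 1813 to 7242 counts a library, whereas NKX2-1 had 2 to 208, SFTPB 4 to 356 and NAPSA 2 to 51.

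No gene met the strictest form of the question, in which RMC-7977 and RMC-4550 each differ from Trametinib and from Cobimetinib. That test took the largest p of the 4 pairwise contrasts of a gene whose 4 fold changes share a sign, and edgeR's quasi-likelihood fit called 0 of 17652 genes after Benjamini-Hochberg adjustment. At an unadjusted p under 0.05, 58 genes passed (0.329%), 40 of them higher (0.227%) and 18 lower (0.102%) in the upstream tumours, against 0 adjusted calls and 73 unadjusted with DESeq2, and 0 and 215 with limma. Without Trametinib replicate 4 the edgeR counts were 0 adjusted and 73 unadjusted (0.406%) of 17980 genes.

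The mean of the upstream drugs did differ from the mean of the MEK inhibitors for 57 genes, or 0.323% of the 17652 tested, at an adjusted p under 0.05 (edgeR). Of these, 37 (0.21%) were higher in the upstream tumours and 20 (0.113%) lower, and 55 (0.312%) had all 4 pairwise differences on the same side of 0. With total counts in place of TMM scaling factors 42 genes were called and 52.38% of them were higher, against 64.91% of the 57. The exceptions were RHOA and P3H2, named here after their values were seen. For 33 genes (0.187% of those tested; 23 higher, 0.13%, and 10 lower, 0.0567%), all 8 upstream tumours lay on one side of all 8 MEK inhibitor tumours. A call and this separation met in 19 genes (0.108%), 12 higher (0.068%) and 7 lower (0.0397%). Without Trametinib replicate 4, 85 of 17980 genes were called (0.473%), 59 higher (0.328%) and 26 lower (0.145%); 53 of the 57 genes were among them, and all 57 kept their sign. The total also moved with other tumours: it was 16 without RMC-7977 replicate 1, 24 without replicate 2 and 32 without replicate 4 of that group. It was 26, 20, 35 and 26 without RMC-4550 replicates 1, 2, 3 and 4, and 23, 31, 32 and 23 without Cobimetinib replicates 1, 2, 3 and 4. A GC correction called 65 genes and kept 42 of the 57, and a fit of the drug groups alone called 39 and kept 34. A fit with the replicate number as a block called 15, all among the 57, and ETV4, ETV5, LAPTM5 and HERC5 were not among the 15. Only 14 of the 57 genes were called in each of the 22 fits that left out 1 tumour. Tested against a minimum change of 0.5 on the log2 scale instead of 0, none of the 57 passed (edgeR).

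In most of these genes Vehicle tumours lay nearer to the MEK inhibitor tumours than to the upstream tumours. The mean of the 6 Vehicle tumours was nearer to the MEK inhibitor mean for 34 of the 37 higher genes (91.9%) and 17 of the 20 lower genes (85.0%), against 44.9% and 45.1% of all tested genes with a positive or negative difference. It lay between the class means for 28 of the 37 higher genes (75.7%) and 14 of the 20 lower genes (70.0%), against 35.1% and 29.8% of all genes. The called genes were selected for a gap between these means, and a wide gap holds the Vehicle mean more often, so this excess is partly built in. Within the upstream arm, RMC-7977 lay farther from the MEK inhibitors than RMC-4550 for 25 of the 37 higher and 16 of the 20 lower genes. Within the MEK arm, Cobimetinib lay farther from the upstream drugs than Trametinib for 31 of the 37 higher and 5 of the 20 lower genes. These are counts, without a test. For the counts within each arm the share over all tested genes was not computed, and the Trametinib mean includes replicate 4.

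**Figure D1:**
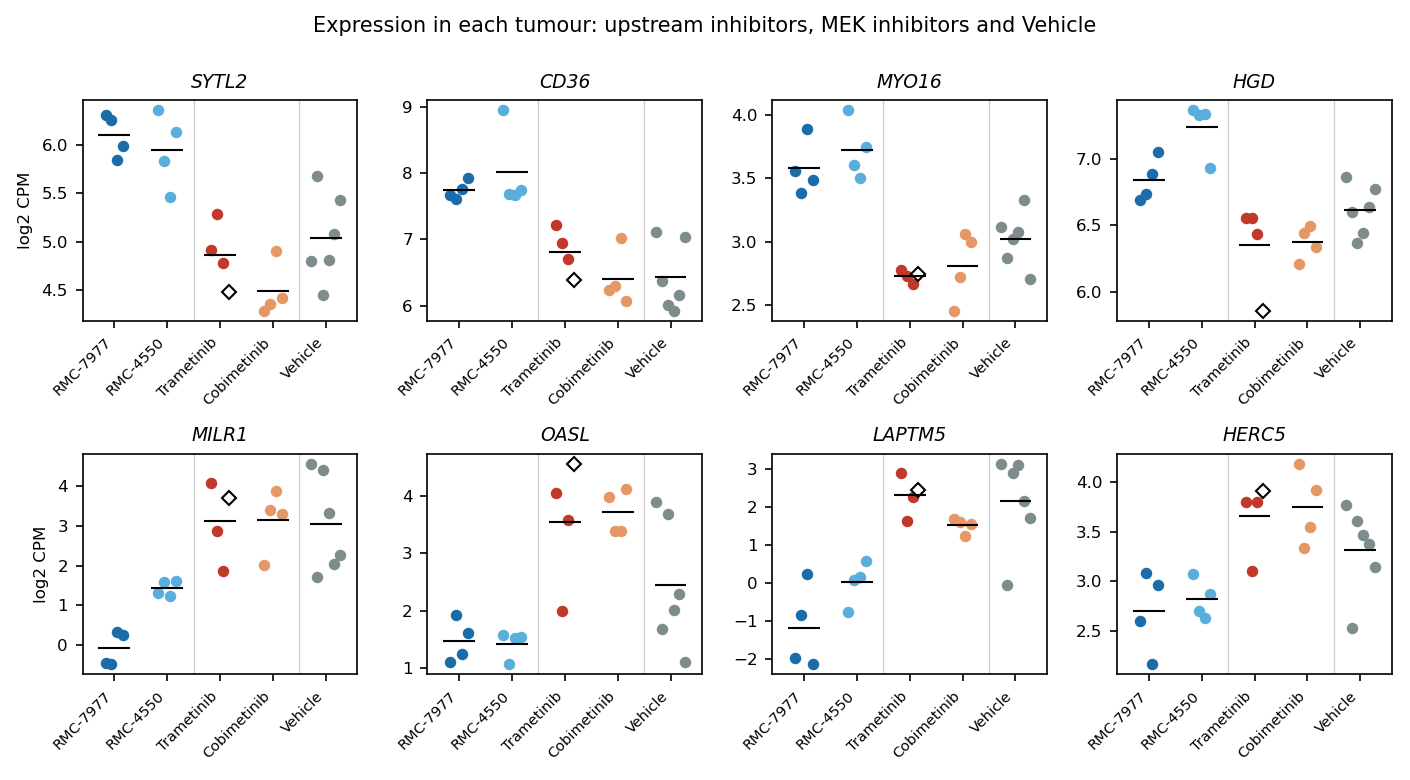
Expression of 8 genes in each of the 22 tumours as log2 CPM, with a prior count of 2. Points are single tumours grouped by drug, horizontal lines are group means, and the open diamond is Trametinib replicate 4. SYTL2, CD36, MYO16 and HGD were higher in all 8 upstream tumours than in all 8 MEK inhibitor tumours, and MILR1, OASL, LAPTM5 and HERC5 lower in all 8.

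The synaptotagmin-like genes SYTL2 and SYTL5, which encode Rab27 effectors that tether secretory vesicles, were higher in the upstream tumours. In CPM, read counts scaled to a common library size, SYTL2 (ENSG00000137501, chromosome 11, 85694224 to 85811159 in hg38) had 79.3, 76.8, 57.5 and 63.6 CPM in RMC-7977 tumours and 82.3, 57.2, 44 and 70.2 CPM in RMC-4550 tumours, against 30, 38.9, 27.4 and 22.1 CPM in Trametinib tumours and 19.3, 20.2, 29.7 and 21.2 CPM in Cobimetinib tumours. The 6 Vehicle tumours ranged from 21.6 to 51.3 CPM with a median of 30.7 CPM, which overlaps both classes. Every upstream tumour lay above every MEK inhibitor tumour, and the pooled log2 fold change was 1.36 ± 0.18 (edgeR adjusted p = 0.00321), or 1.30 ± 0.18 without Trametinib replicate 4 (adjusted p = 0.00356). The 4 pairwise log2 differences were all above 1: RMC-7977 exceeded Trametinib by 1.23 ± 0.26 and Cobimetinib by 1.62 ± 0.26, and RMC-4550 exceeded them by 1.10 ± 0.26 and 1.49 ± 0.26.

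SYTL5 (ENSG00000147041, chromosome X, 38006582 to 38128819) had 37.1, 30, 30.9 and 30.4 CPM in RMC-7977 tumours and 26.4, 21.8, 17.9 and 18.8 CPM in RMC-4550 tumours, against 13.1, 14, 15.4 and 3.84 CPM in Trametinib tumours and 13.3, 11.5, 14.1 and 10.2 CPM in Cobimetinib tumours. The RMC-7977 tumours were the highest, the RMC-4550 tumours intermediate and both MEK inhibitor groups lay with Vehicle, at 6.91 to 18.5 CPM with a median of 13.1 CPM. The pooled log2 fold change was 1.12 ± 0.22 (edgeR adjusted p = 0.0246) and 0.99 ± 0.16 without Trametinib replicate 4 (adjusted p = 0.00794), which was the lowest tumour. This call was lost in 5 of the 22 fits that left out 1 tumour, with adjusted p-values of up to 0.068 (without Cobimetinib replicate 4).

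Of 15 tested alveolar type 2 genes, 10 had negative differences, against 8238 of 17652 over all genes. Their median was −0.35, against 0.02 over all genes. ETV5 was called lower, as 0.113% of all genes were, and CD36 higher, as 0.21% were. Without Trametinib replicate 4, 9 of the 15 were negative, with a median of −0.34, and 1 was called each way. CD36 encodes a scavenger receptor that takes up long-chain fatty acids. It (ENSG00000135218, chromosome 7, 80369575 to 80679277) had 202, 195, 216 and 242 CPM in RMC-7977 tumours and 494, 205, 203 and 214 CPM in RMC-4550 tumours, against 148, 123, 104 and 83.5 CPM in Trametinib tumours and 75.3, 78.6, 129.7 and 67.1 CPM in Cobimetinib tumours. RMC-4550 replicate 1 was far above the other 7 upstream tumours, which stayed within 195 to 242 CPM, and no MEK inhibitor tumour reached that range. Vehicle tumours had 60.5 to 138 CPM with a median of 77 CPM, a range that overlapped the MEK inhibitor tumours and lay below the upstream tumours. The pooled log2 fold change was 1.28 ± 0.22 (edgeR adjusted p = 0.0149) and 1.22 ± 0.22 without Trametinib replicate 4 (adjusted p = 0.0134), and the call held in all 22 fits that left out 1 tumour.

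MYO16, an unconventional myosin, separated the classes with little scatter in the MEK arm. It (ENSG00000041515, chromosome 13, 108596152 to 109208007) had 11.6, 10.3, 14.6 and 11.1 CPM in RMC-7977 tumours and 16.3, 12, 11.2 and 13.3 CPM in RMC-4550 tumours, against 6.7, 6.47, 6.19 and 6.56 CPM in Trametinib tumours and 5.32, 6.42, 8.16 and 7.84 CPM in Cobimetinib tumours. Trametinib replicate 4 matched its group here, and Vehicle tumours, at 6.37 to 9.89 CPM with a median of 8.12 CPM, overlapped the MEK inhibitor tumours and stayed below the upstream ones. Its pooled log2 fold change was 0.90 ± 0.14 (edgeR adjusted p = 0.0101), or 0.90 ± 0.13 without Trametinib replicate 4 (adjusted p = 0.00531). The strand setting of the counting is not given in the sources used here; the antisense gene MYO16-AS1, which overlaps MYO16, differed by −0.46 ± 0.18 (adjusted p = 0.341), in the other direction.

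HGD, an enzyme of tyrosine breakdown, and STEAP4, a metalloreductase of the plasma membrane, had their highest means under RMC-4550. HGD (ENSG00000113924, chromosome 3, 120628173 to 120682571) had 103, 107, 118 and 132 CPM in RMC-7977 tumours and 165, 161, 162 and 122 CPM in RMC-4550 tumours, against 93.7, 93.8, 86.3 and 57.8 CPM in Trametinib tumours and 73.9, 86.8, 90 and 80.6 CPM in Cobimetinib tumours. The RMC-7977 tumours sat just above the MEK inhibitor tumours and 3 of the 4 RMC-4550 tumours well above, though RMC-7977 minus RMC-4550 was −0.41 ± 0.17 with an adjusted p of 0.572. Between the classes the log2 fold change was 0.68 ± 0.12 (edgeR adjusted p = 0.0149), or 0.61 ± 0.10 without Trametinib replicate 4 (adjusted p = 0.00785).

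STEAP4 (ENSG00000127954, chromosome 7, 88270892 to 88306891) had 189, 177, 203 and 197 CPM in RMC-7977 tumours and 360.0, 354, 232 and 354 CPM in RMC-4550 tumours, against 161, 166, 168 and 142 CPM in Trametinib tumours and 85.6, 151, 128 and 143 CPM in Cobimetinib tumours. RMC-7977 differed from Trametinib by 0.27 ± 0.21 (edgeR adjusted p = 0.485), whereas RMC-4550 exceeded Cobimetinib by 1.36 ± 0.21 (adjusted p = 0.0138). The direct difference between the upstream drugs, RMC-7977 minus RMC-4550, was −0.76 ± 0.21 with an adjusted p of 0.21, short of the threshold. The pooled difference was 0.81 ± 0.15 (adjusted p = 0.0149).

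SPATS2L, whose product is found in nucleoli and stress granules, had its highest mean under RMC-7977. It had 178, 175, 149 and 195 CPM in RMC-7977 tumours and 136, 125, 153 and 129 CPM in RMC-4550 tumours, against 115, 112, 105 and 78.9 CPM in Trametinib tumours and 71.8, 84, 80.8 and 104 CPM in Cobimetinib tumours. RMC-7977 minus RMC-4550 was 0.36 ± 0.18 (edgeR adjusted p = 0.681), and no upstream tumour fell into the MEK inhibitor range. Its pooled log2 fold change was 0.72 ± 0.13 (edgeR adjusted p = 0.0149), or 0.67 ± 0.11 without Trametinib replicate 4 (adjusted p = 0.00902).

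PEG10, PALLD and MAP3K8 were also higher in all 8 upstream tumours but were called less firmly. PEG10, an imprinted gene derived from a retrotransposon, ranged from 20.2 to 29.9 CPM in the upstream tumours, against 8.48 to 18.6 CPM in the MEK inhibitor tumours, a log2 difference of 0.87 ± 0.18 (edgeR adjusted p = 0.0373) that was lost in 12 of the 22 fits without 1 tumour. PALLD, which encodes the actin-bundling protein palladin, ranged from 86 to 118 CPM in the upstream tumours, against 48.1 to 78.7 CPM in the MEK inhibitor tumours, with a difference of 0.63 ± 0.12 (adjusted p = 0.022), lost in 5. MAP3K8 encodes the kinase TPL2, which can phosphorylate MEK independently of RAF. It ranged from 43.1 to 63.5 CPM in the upstream tumours, against 34 to 40.6 CPM in the MEK inhibitor tumours, with a difference of 0.53 ± 0.12 (adjusted p = 0.049) that was lost in 18 of the 22 fits, with adjusted p-values of up to 0.1005 for PEG10, 0.061 for PALLD and 0.1403 for MAP3K8. Each of these stayed called without Trametinib replicate 4, at adjusted p = 0.0332, 0.0167 and 0.0332 in that order.

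**Figure D2:**
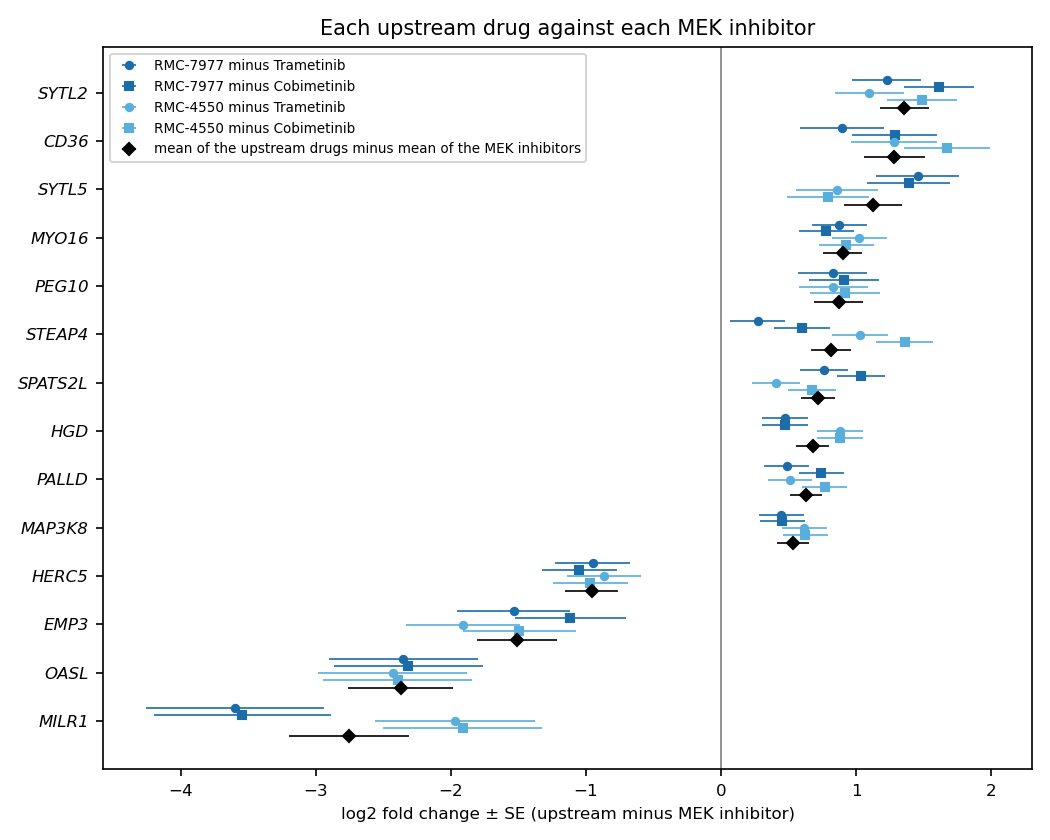
Log2 fold changes with standard errors for each upstream drug minus each MEK inhibitor (circles and squares, 4 per gene) and for the mean of the upstream drugs minus the mean of the MEK inhibitors (black diamonds), for genes called in the pooled contrast whose 8 upstream tumours do not overlap the 8 MEK inhibitor tumours and whose mean log2 CPM is at least 2. All 4 differences of each gene lie on the same side of 0, with the smallest at STEAP4 for RMC-7977 minus Trametinib (0.27).

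Of the lower genes taken by the rule, MILR1 showed the largest difference. The gene encodes an inhibitory immunoglobulin-like receptor known from mast cells. It (ENSG00000271605, chromosome 17, 64449037 to 64468643) had 0.572, 0.554, 1.1 and 1.04 CPM in RMC-7977 tumours and 2.32, 2.83, 2.21 and 2.88 CPM in RMC-4550 tumours, against 16.8, 7.18, 3.5 and 13 CPM in Trametinib tumours and 3.87, 10.4, 14.7 and 9.78 CPM in Cobimetinib tumours. The RMC-7977 tumours were lowest and the RMC-4550 tumours all below the lowest MEK inhibitor tumour. Vehicle was spread widely, at 3.14 to 23.6 CPM with a median of 7.25 CPM. The log2 difference between the classes was −2.76 ± 0.44 (edgeR adjusted p = 0.0101), or −2.68 ± 0.45 without Trametinib replicate 4 (adjusted p = 0.00902), and the call held in all 22 fits without 1 tumour. RMC-7977 minus RMC-4550 was −1.63 ± 0.65 with an adjusted p of 0.53.

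OASL and HERC5 are interferon-induced genes: OASL encodes an antiviral protein related to the oligoadenylate synthetases, and HERC5 the ligase that attaches ISG15 to proteins. OASL (ENSG00000135114, chromosome 12, 121019111 to 121039242) had 2, 3.64, 2.21 and 2.9 CPM in RMC-7977 tumours and 2.84, 1.93, 2.73 and 2.74 CPM in RMC-4550 tumours, against 16.4, 3.81, 11.8 and 23.5 CPM in Trametinib tumours and 15.7, 10.4, 10.4 and 17.4 CPM in Cobimetinib tumours. The upstream tumours formed a tight low group, while the MEK inhibitor tumours were 3.81 CPM or more; Vehicle ranged from 2 to 14.8 CPM with a median of 4.3 CPM and overlapped both. Upstream minus MEK inhibitors was −2.37 ± 0.39 (edgeR adjusted p = 0.0114), or −2.19 ± 0.38 without Trametinib replicate 4 (adjusted p = 0.00902). It held in all 22 fits without 1 tumour.

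HERC5 (ENSG00000138646, chromosome 4, 88457117 to 88506163) had 5.91, 8.32, 4.33 and 7.68 CPM in RMC-7977 tumours and 8.26, 6.37, 6.04 and 7.17 CPM in RMC-4550 tumours, against 13.8, 8.42, 13.8 and 14.9 CPM in Trametinib tumours and 18, 9.91, 11.6 and 15 CPM in Cobimetinib tumours. In log2 CPM HERC5 ranged from 2.17 to 3.08 in the upstream tumours and from 3.10 to 4.18 in the MEK inhibitor tumours. Vehicle tumours, at 2.53 to 3.77, overlapped both. Trametinib replicate 2 came closest to the upstream tumours, whose highest was RMC-7977 replicate 2. Its pooled log2 fold change was −0.96 ± 0.20 (edgeR adjusted p = 0.0294), or −0.92 ± 0.19 without Trametinib replicate 4 (adjusted p = 0.0317); it was lost in 8 of the 22 fits without 1 tumour, with adjusted p-values of up to 0.0861.

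HERC5, like OASL, was lower in the upstream tumours than in the MEK inhibitor tumours. Only the HERC5 promoter is shown, because the promoter sequences used here had no entry for OASL. The 250 bases before the RefSeq start of HERC5 (GRCh38.p14, plus strand, chr4:88456869-88457118) hold 3 matches, on either strand, to GAAA followed by any 2 bases and GAAA. These letters are the core of the interferon-stimulated response element, and the matches begin 125, 119 and 74 bases before the start. The first pair of matches overlap, and the matched bases are in capitals.
HERC5 promoter: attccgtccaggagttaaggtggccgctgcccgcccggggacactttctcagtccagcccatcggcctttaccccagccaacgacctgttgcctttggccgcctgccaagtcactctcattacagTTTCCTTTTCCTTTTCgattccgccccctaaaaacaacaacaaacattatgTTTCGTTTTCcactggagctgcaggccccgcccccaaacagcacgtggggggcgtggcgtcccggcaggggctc
The motif was found in 1061 of 35116 such promoter windows (3.02%). Of the 25 interferon-stimulated genes that have a window, 17 had a match in any of theirs. Some of these genes have several windows, so the count by gene and the share by window are in unlike units. A match describes the sequence and says nothing of binding in these tumours.

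No other interferon-stimulated gene passed with all tumours. Of 31 tested, OASL and HERC5 were called as lower, as 0.113% of all genes were, 18 had positive and 13 negative differences, and the median log2 difference was 0.16, against 0.02 over all genes. IFIT2, which encodes an interferon-induced RNA-binding protein, had 7.05, 9.58, 11 and 10 CPM in RMC-7977 tumours and 13.9, 9.2, 8.84 and 7.87 CPM in RMC-4550 tumours, against 22.4, 16.4, 24.7 and 6.08 CPM in Trametinib tumours and 18.7, 17.6, 22.9 and 34.7 CPM in Cobimetinib tumours. Every MEK inhibitor tumour but Trametinib replicate 4 lay above the upstream tumours. Its pooled difference of −1.07 ± 0.29 did not pass (edgeR adjusted p = 0.137), but without that tumour it was −1.20 ± 0.25 and passed (adjusted p = 0.032). IFIT3, which is outside the naming rule, had a similar difference of −1.19 ± 0.31. It did not pass with (edgeR adjusted p = 0.118) or without that tumour (adjusted p = 0.127).

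EMP3, an epithelial membrane protein family member, was also apart, with 1.14 to 3.46 CPM in the upstream tumours, against 4.08 to 13.1 CPM in the MEK inhibitor tumours. The log2 difference was −1.51 ± 0.30 (edgeR adjusted p = 0.0246), lost in 8 of the 22 fits without 1 tumour with adjusted p-values of up to 0.0679. The overlapping gene CCDC114 differed by 0.07 ± 0.43. AURKA, a mitotic kinase added by the same conditions except the threshold, ranged from 48.2 to 76.1 CPM in the upstream tumours, against 76.6 to 104 CPM in the MEK inhibitor tumours, with a log2 difference of −0.47 ± 0.15 (adjusted p = 0.214).

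Among the ERK target genes, the ETS factors ETV4 and ETV5 were lower in the mean of the upstream drugs than in that of the MEK inhibitors. Their lowest group means were under RMC-7977. Of 9 MAPK output genes tested, ETV4 and ETV5 passed the threshold as lower (0.113% of all genes did), 8 had negative differences (8238 of 17652 over all genes), and the median log2 difference was −0.74, against 0.02 over all genes. Without Trametinib replicate 4, 4 passed as lower, 8 were negative and the median was −0.57. The summed level of the 9 genes was 226.9 to 568.5 CPM in the upstream tumours, against 142.7 to 554.9 CPM in the MEK inhibitor tumours and 513.9 to 874.6 CPM in Vehicle tumours, so both classes lay below most Vehicle tumours. The lowest MEK inhibitor tumour was Trametinib replicate 4. Without it the MEK range began at 343.9 CPM. Members weighed unequally in this sum. In log2 CPM, with a prior count of 2, DUSP4 ranged from 6.09 to 8.97 over all tumours and CCND1 from 4.67 to 7.69. ETV4 ranged from −0.79 to 4.88, ETV5 from 0.34 to 4.22 and DUSP6 from −2.69 to 4.7. The sum thus mainly followed abundant members such as DUSP4 and CCND1, which did not pass, and says little about ETV4, ETV5 and DUSP6.

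ETV4 (ENSG00000175832, chromosome 17, 43527844 to 43579620) had 0.572, 1.11, 0.425 and 1.11 CPM in RMC-7977 tumours and 1.98, 7.47, 4.93 and 3.87 CPM in RMC-4550 tumours, against 9.49, 4.96, 8.14 and 0.96 CPM in Trametinib tumours and 14.7, 11.7, 9.25 and 7.52 CPM in Cobimetinib tumours, with Vehicle at 6.86 to 29.3 CPM with a median of 20.2 CPM. The RMC-7977 tumours stood below every other tumour except Trametinib replicate 4, and the RMC-4550 tumours overlapped the Trametinib tumours. Upstream minus MEK inhibitors was −2.05 ± 0.38 (edgeR adjusted p = 0.022), or −2.21 ± 0.33 without Trametinib replicate 4 (adjusted p = 0.00531). RMC-7977 differed from Cobimetinib by −3.71 ± 0.58 (adjusted p = 0.00446) and from Trametinib by −2.87 ± 0.58 (adjusted p = 0.0313), against −1.23 ± 0.50 and −0.39 ± 0.50 for RMC-4550 (adjusted p = 0.631 and 0.789). The direct difference between RMC-7977 and RMC-4550 was −2.48 ± 0.57 (adjusted p = 0.106). The pooled call was lost without RMC-7977 replicate 1 (0.062), RMC-4550 replicate 4 (0.055) or Cobimetinib replicate 1 (0.053).

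ETV5 (ENSG00000244405, chromosome 3, 186046308 to 186110318) had 1.43, 1.11, 1.45 and 3.73 CPM in RMC-7977 tumours and 3.61, 8.88, 8.1 and 3.37 CPM in RMC-4550 tumours, against 8.59, 7.09, 6.92 and 11.7 CPM in Trametinib tumours and 14.1, 12.2, 9.72 and 10.3 CPM in Cobimetinib tumours. RMC-7977 replicate 4 overlapped the RMC-4550 tumours, Trametinib replicate 4 was the highest of its group, and Vehicle ranged from 6.6 to 18.5 CPM with a median of 12.9 CPM. The RMC-4550 tumours also overlapped the Trametinib tumours, as RMC-4550 replicates 2 and 3 lay above Trametinib replicates 2 and 3. The class difference was −1.53 ± 0.27 (edgeR adjusted p = 0.0149), or −1.44 ± 0.27 without Trametinib replicate 4 (adjusted p = 0.0167), and of the 22 fits without 1 tumour it was lost in the one without RMC-7977 replicate 1 (adjusted p = 0.0506). RMC-7977 lay −2.57 ± 0.40 from Cobimetinib (adjusted p = 0.00446), and RMC-4550 lay −0.95 ± 0.37 from it (adjusted p = 0.607).

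DUSP6, the cytoplasmic phosphatase of ERK, was low under both upstream drugs, which differed by −0.18 ± 0.55 (RMC-7977 minus RMC-4550, edgeR adjusted p = 0.988). It (ENSG00000139318, chromosome 12, 89347232 to 89353271) had 1.43, 1.03, 1.78 and 1.45 CPM in RMC-7977 tumours and 1.12, 1.87, 0.958 and 2.46 CPM in RMC-4550 tumours, against 2.79, 3.28, 4.15 and 0 CPM in Trametinib tumours and 5.53, 6.5, 4.08 and 7.15 CPM in Cobimetinib tumours, and 8.05 to 25.8 CPM with a median of 21.2 CPM in Vehicle tumours. Trametinib replicate 4 had no DUSP6 counts, which at its depth allows up to 0.48 CPM, and every drug-treated tumour lay below every Vehicle tumour. With it the pooled difference was −1.37 ± 0.38 and did not pass (edgeR adjusted p = 0.14); without it the 8 upstream tumours lay below the 7 MEK inhibitor tumours and the difference was −1.55 ± 0.25 (adjusted p = 0.00825).

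SPRY4, a Sprouty inhibitor of receptor signalling, had 0.286, 0.238, 0 and 0.692 CPM in RMC-7977 tumours and 0.774, 0.644, 0.368 and 0.492 CPM in RMC-4550 tumours, against 0.979, 0.354, 1.14 and 0 CPM in Trametinib tumours and 3.11, 2.25, 2.58 and 3.82 CPM in Cobimetinib tumours. RMC-7977 replicate 3 and Trametinib replicate 4 had no SPRY4 counts, which allows up to 0.255 and 0.48 CPM, and only the Cobimetinib tumours kept the Vehicle level of 1.93 to 5.31 CPM with a median of 3.09 CPM. Its pooled difference was −1.70 ± 0.47 with Trametinib replicate 4 (edgeR adjusted p = 0.141) and −1.86 ± 0.39 without it (adjusted p = 0.0317). SPRY2, another Sprouty gene, differed by −0.30 ± 0.14 (adjusted p = 0.451) and PHLDA1, a pleckstrin homology-like protein induced by ERK, by −0.74 ± 0.31 (adjusted p = 0.389).

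DUSP4, a nuclear MAP kinase phosphatase, differed by −0.23 ± 0.21 (edgeR adjusted p = 0.765), EPHA2, an ephrin receptor, by 0.27 ± 0.32 (adjusted p = 0.835), and CCND1, which encodes cyclin D1, by −0.03 ± 0.24 (adjusted p = 0.978). For DUSP4 the RMC-7977 tumours were at 126 ± 26.5 CPM and the RMC-4550 tumours at 249.6 ± 92 CPM, against 173 ± 77.4 CPM in Trametinib and 249 ± 37.9 CPM in Cobimetinib tumours (SD, n = 4 each), so the RMC-7977 and RMC-4550 means were farther apart than any upstream mean from Trametinib.

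Among the early response genes, FOSL1, an AP-1 subunit, differed by −1.93 ± 0.45 (edgeR adjusted p = 0.0721); Trametinib replicate 4 had 20.2 CPM against 1.47 to 6.35 CPM in the other MEK inhibitor tumours, and the difference without it was −1.20 ± 0.32 (adjusted p = 0.117). Of the 22 fits without 1 tumour, it passed in the one without Trametinib replicate 3 (adjusted p = 0.033). EGR1, a zinc finger factor induced by ERK, differed by −1.05 ± 0.52 (adjusted p = 0.487). None of 16 immediate early genes passed, and 11 of them were positive, against 9414 of 17652 over all genes.

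**Figure D3:**
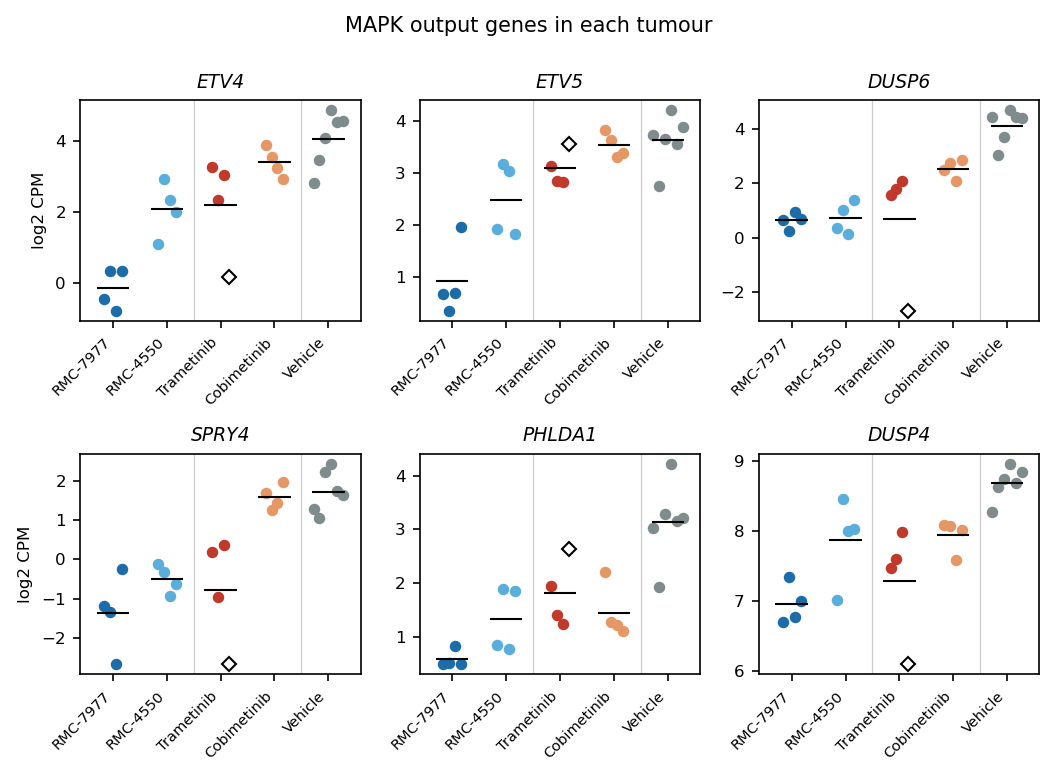
Log2 CPM, with a prior count of 2, of 6 ERK target genes in each of the 22 tumours; lines are group means and the open diamond is Trametinib replicate 4. RMC-7977 had the lowest group means of ETV4 and ETV5, and DUSP6 lay below Vehicle in all 16 drug-treated tumours.

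The transcripts of the drug targets and of the chain itself did not pass in this contrast. RIT1 ranged from 118 to 183 CPM in the upstream tumours, against 81.9 to 142 CPM in the MEK inhibitor tumours, with a log2 difference of 0.23 ± 0.13 (edgeR adjusted p = 0.558). PTPN11, which encodes SHP2, differed by 0.04 ± 0.16 (adjusted p = 0.964). MAP2K1 and MAP2K2, which encode the MEK kinases, differed by 0.09 ± 0.13 and 0.05 ± 0.16 (adjusted p = 0.884 and 0.947). The RAS genes NRAS and HRAS differed by 0.08 ± 0.22 and −0.15 ± 0.13 (adjusted p = 0.94 and 0.733). PPIA, the cyclophilin that RMC-7977 binds to reach RAS, differed by −0.37 ± 0.23 (adjusted p = 0.6), and by −0.03 ± 0.13 without Trametinib replicate 4, in which it had 5978 CPM. Of 33 tested genes of RAS activation and the MAPK cascade none passed with all tumours. Without Trametinib replicate 4 the exchange factor gene RASGRP3, which is outside the naming rule, did, at 0.79 ± 0.17 (edgeR adjusted p = 0.0332). None of 21 genes of RAS effectors outside the RAF arm passed, with a median of 0.05, or −0.004 without Trametinib replicate 4. None of 24 genes of the PI3K, AKT and mTOR pathway passed, with a median of 0.16 and 20 positive, or 0.089 and 16 positive without that tumour. Over all genes the median was 0.02 and 9414 of 17652 were positive.

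**Figure D4:**
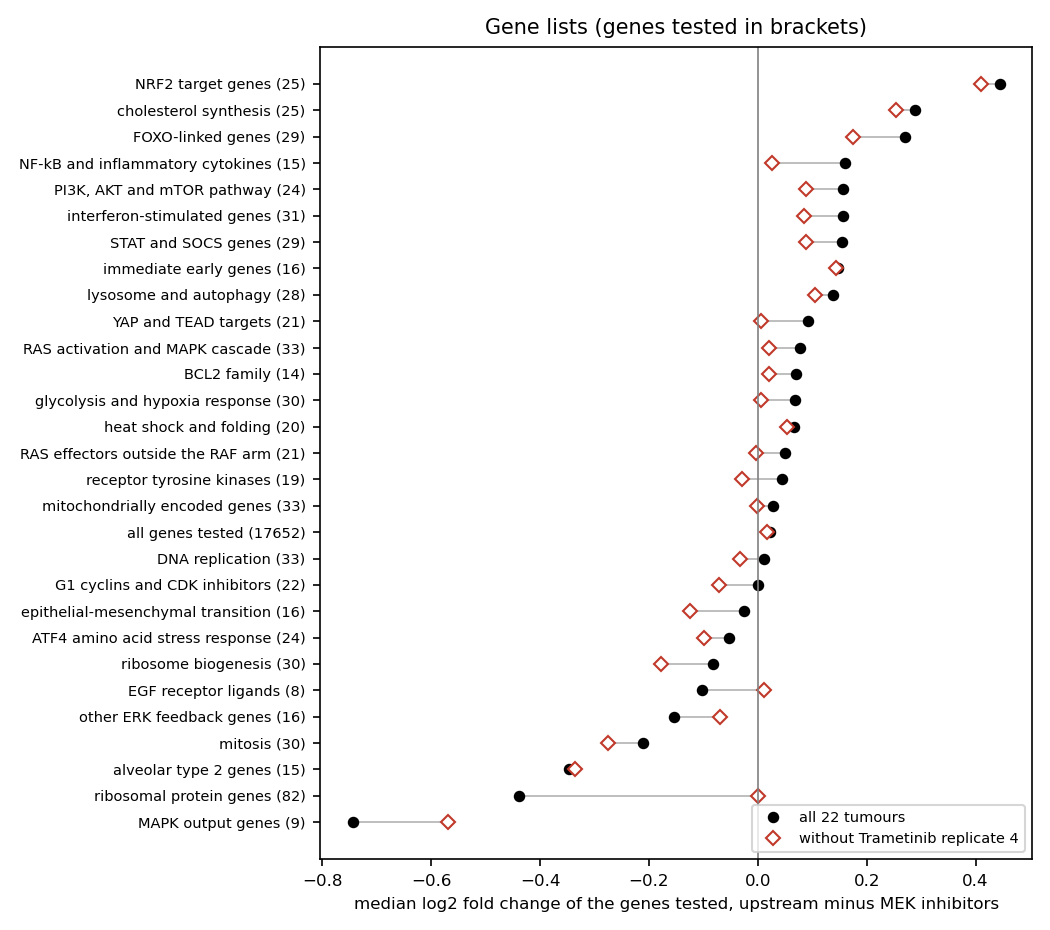
Median log2 fold change (upstream minus MEK inhibitors) of the tested members of each gene list, with all 22 tumours (filled circles) and without Trametinib replicate 4 (open diamonds); the number of genes tested is in brackets. Among the pathway lists, MAPK output genes had the lowest median (−0.74) and NRF2 target genes the highest (0.44) with all 22 tumours, and ribosomal protein genes moved to 0 without that tumour.

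Single members of several other pathways passed. Of all genes tested, 0.21% were called higher and 0.113% lower. Positive differences were found in 9414 of 17652, and the median over all genes was 0.02. FBXO32, a ubiquitin ligase subunit induced by FOXO factors, was at 22.1 ± 2.68 CPM in RMC-7977 and 16.6 ± 4.92 CPM in RMC-4550 tumours, against 9.71 ± 2.18 CPM in Trametinib and 8.66 ± 2.7 CPM in Cobimetinib tumours (SD, n = 4 each). Its log2 difference was 1.06 ± 0.22 (edgeR adjusted p = 0.0294), it was the only one called of 29 FOXO-linked genes (23 positive, median 0.27), and the call was lost in 11 of the 22 fits without 1 tumour, at up to 0.1051. Without Trametinib replicate 4, 22 of the 29 FOXO-linked genes were positive, with a median of 0.17.

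SOCS2, a feedback inhibitor of cytokine and growth hormone signalling, had 17.2, 11.7, 16.9 and 13.1 CPM in RMC-7977 tumours and 12.8, 6.44, 12.4 and 12.2 CPM in RMC-4550 tumours, against 4.44, 5.14, 5.13 and 10.7 CPM in Trametinib tumours and 7.05, 4.64, 4.42 and 5.45 CPM in Cobimetinib tumours. RMC-4550 replicate 2 and Trametinib replicate 4 lay outside their groups. The difference was 1.12 ± 0.22 (edgeR adjusted p = 0.026), lost in 12 of the 22 fits at up to 0.1035, and 1.30 ± 0.20 without Trametinib replicate 4 (adjusted p = 0.00531). It was the only gene called of 29 STAT and SOCS genes, where 0.21% of all genes were called higher.

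HSPB1, a small heat shock protein, differed by 1.04 ± 0.21 (edgeR adjusted p = 0.026) and was highest under RMC-7977, at 228 ± 71.8 CPM, with RMC-4550 at 122 ± 60.4 CPM, against 70.5 ± 18.2 CPM for Trametinib and 92.9 ± 19.4 CPM for Cobimetinib (SD, n = 4 each). XBP1, a transcription factor of the unfolded protein response, differed by 0.72 ± 0.15 (adjusted p = 0.0432). These were the members called of 20 heat shock and folding genes, where 0.21% of all genes were called higher. Leaving out 1 tumour ended the call in 8 fits for HSPB1 (up to 0.0842) and 16 for XBP1 (up to 0.1148).

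AXL, a receptor tyrosine kinase, was lower, with 8.68, 14.7, 15.9 and 6.71 CPM in RMC-7977 tumours and 9.38, 17.8, 16.1 and 29.2 CPM in RMC-4550 tumours, against 27.6, 30.2, 37.4 and 67.7 CPM in Trametinib tumours and 43.2, 35.8, 14.3 and 28.3 CPM in Cobimetinib tumours. The ranges overlapped through Cobimetinib replicate 3 and RMC-4550 replicate 4. Its difference was −1.28 ± 0.27 (edgeR adjusted p = 0.0373) and did not pass without Trametinib replicate 4, the highest tumour (−1.11 ± 0.26, adjusted p = 0.0599); in all it was lost in 12 of the 22 fits, at up to 0.1221. It was the only one called of 19 receptor tyrosine kinases and of 21 YAP and TEAD targets, where 0.113% of all genes were called lower.

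No member of the NRF2 target, cholesterol synthesis and mitosis lists was called with all tumours. Of 25 NRF2 target genes, which encode redox and detoxifying enzymes, 22 were positive with a median log2 difference of 0.44, against 0.02 and 9414 of 17652 over all genes. Their summed level was 7702 to 11160 CPM in RMC-7977 and 11950 to 20870 CPM in RMC-4550 tumours, against 9418 to 13630 CPM in Trametinib and 8414 to 10700 CPM in Cobimetinib tumours, so the RMC-7977 tumours lay within or below the MEK inhibitor range. PGD, an enzyme of the pentose phosphate pathway, differed by 0.60 ± 0.14 (edgeR adjusted p = 0.0667), TXNRD1, a thioredoxin reductase, by 0.66 ± 0.17 (adjusted p = 0.126), and GCLC, the catalytic subunit of glutathione synthesis, by 0.55 ± 0.14 (adjusted p = 0.126), all named here after their values were seen. NQO1, a quinone reductase, was the member called without Trametinib replicate 4, in which it had 599.5 CPM: 0.68 ± 0.14 (adjusted p = 0.0327), against 0.55 ± 0.17 with it (adjusted p = 0.197). In NQO1 the RMC-4550 tumours were the higher of the upstream arm, at 588 ± 146 CPM, with RMC-7977 at 425 ± 59.2 CPM (SD, n = 4 each).

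Over all genes, 9414 of 17652 were positive and 8238 negative, with a median log2 difference of 0.02. Of 25 cholesterol synthesis genes, 20 were positive with a median of 0.29. They summed to 3203 to 5333 CPM in RMC-7977 and 2805 to 3862 CPM in RMC-4550 tumours, against 2242 to 3084 CPM in Trametinib and 3227 to 4220 CPM in Cobimetinib tumours, with the RMC-4550 tumours within or below the Cobimetinib range. Of 30 mitosis genes, 29 were negative with a median of −0.21 (30 and −0.27 without Trametinib replicate 4), and their summed level was 2153 to 3346 CPM in the upstream tumours, against 2640 to 4301 CPM in the MEK inhibitor tumours, 3163 to 4301 CPM without Trametinib replicate 4. CDC20, an activator of the anaphase-promoting complex chosen after its values were seen, differed by −0.50 ± 0.14 (edgeR adjusted p = 0.134). Of 30 ribosome biogenesis genes, 24 were negative with a median of −0.08, and 28 with a median of −0.18 without that tumour. Of 33 DNA replication genes, 19 were positive with a median of 0.01, and 11 with a median of −0.03 without that tumour. No member of the cholesterol, mitosis, ribosome biogenesis or DNA replication lists was called.

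Some genes listed as markers of cells other than the tumour also differed. In bulk tumour RNA, fewer cells of a type and less RNA per cell cannot be told apart. Whether the tumour cells themselves express these genes was not tested. LAPTM5, a lysosomal membrane protein of blood cells, had 0.0953, 0.396, 1.02 and 0.0692 CPM in RMC-7977 tumours and 0.43, 0.901, 0.958 and 1.34 CPM in RMC-4550 tumours, against 7.31, 2.92, 4.64 and 5.28 CPM in Trametinib tumours and 3.04, 2.86, 2.18 and 2.76 CPM in Cobimetinib tumours. Every upstream tumour lay below every MEK inhibitor tumour, at 1 to 19 counts a library against 32 to 97, with 1 count each in RMC-7977 replicates 1 and 4, and the log2 difference was −2.61 ± 0.46 (edgeR adjusted p = 0.0149), or −2.60 ± 0.46 without Trametinib replicate 4 (adjusted p = 0.01). MRC1, the mannose receptor of macrophages, went the other way, at 2.12 ± 0.46 (adjusted p = 0.0471) with 22.1 ± 18.5 CPM in RMC-7977 and 42 ± 16.3 CPM in RMC-4550 tumours, against 12.8 ± 3.48 CPM in Trametinib and 3.81 ± 0.511 CPM in Cobimetinib tumours (SD, n = 4 each). It did not pass without Trametinib replicate 4 (adjusted p = 0.0578) and was lost in 17 of the 22 fits without 1 tumour, at up to 0.1498.

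Only 7 of the 18 myeloid markers had enough counts to be tested, 6 of them negative, with a median of −0.86 (−0.47 without Trametinib replicate 4). Over all genes 8238 of 17652 were negative, with a median of 0.02. The defining markers were at or near 0: C1QA had no counts in any library, CD68 at most 2, and PTPRC, the pan-leukocyte marker, 0 to 34. The summed level of the 7 was 105.0 to 911.9 CPM in the upstream tumours, against 151.6 to 5003 CPM in the MEK inhibitor tumours, 151.6 to 528.8 CPM without Trametinib replicate 4, and 90.22 to 1062 CPM in Vehicle tumours. Members weighed unequally in this sum: S100A9 had 340 to 28492 counts a library and S100A8 71 to 3086, against 1 to 146 for LAPTM5. Of 13 endothelial markers 7 were tested and all 7 were negative with all tumours, with a median of −0.80, and summed to 74.45 to 124.9 CPM in the upstream tumours against 98.65 to 276.2 CPM in the MEK inhibitor tumours. Without Trametinib replicate 4, 5 of the 7 were negative, the median was −0.28 and the MEK range ended at 189.7 CPM. CLDN5 had 100 to 1888 counts a library, whereas KDR, which was not tested, had at most 3. Of 15 fibroblast and pericyte markers 4 were tested and 3 were positive, with a median of 0.24 (0.34 without Trametinib replicate 4). The part of these markers in the differences of MILR1, LAPTM5 and MRC1 was not tested. 

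Leaving out Trametinib replicate 4 changed which genes passed, and no gene called in either fit changed its sign. The genes called with it but not without were TOP1MT, AXL, MRC1 and DNAH5 (TOP1MT and DNAH5 are named after their values were seen), and 32 genes were called only without it. HDAC9, a class IIa histone deacetylase, was called either way but more clearly without: it had 15.3, 12.5, 13.5 and 9.96 CPM in RMC-7977 tumours and 13.9, 10, 12 and 10.8 CPM in RMC-4550 tumours, against 6.48, 6.91, 3.26 and 18.7 CPM in Trametinib tumours and 3.18, 2.25, 3.47 and 2.26 CPM in Cobimetinib tumours. Trametinib replicate 4 was the highest of all tumours, while the other 7 MEK inhibitor tumours lay below the upstream tumours. The difference was 1.31 ± 0.26 (edgeR adjusted p = 0.0246) with that tumour, lost in 11 of the 22 fits without 1 tumour at up to 0.1015, and 1.64 ± 0.18 without it (adjusted p = 0.000263).

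GCNT3, a glycosyltransferase of mucin-type glycans, had 48.2 CPM in Trametinib replicate 4, against 6.26 to 12.7 CPM in the upstream tumours and 2.42 to 5.35 CPM in the other MEK inhibitor tumours. Its difference was 0.33 ± 0.40 with that tumour (edgeR adjusted p = 0.842) and 1.16 ± 0.21 without it (adjusted p = 0.0134). PGBD1, a gene derived from a transposase, and ZDHHC23, a palmitoyltransferase, were low in that tumour, at 6.88 and 22.9 CPM, and did not pass, at −0.53 ± 0.12 (adjusted p = 0.0582) and −0.36 ± 0.09 (adjusted p = 0.0991) without it. Of 82 ribosomal protein genes, 76 were negative with a median of −0.44 with it, and 41 were negative with a median of 0.00 without it.

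**Figure D5:**
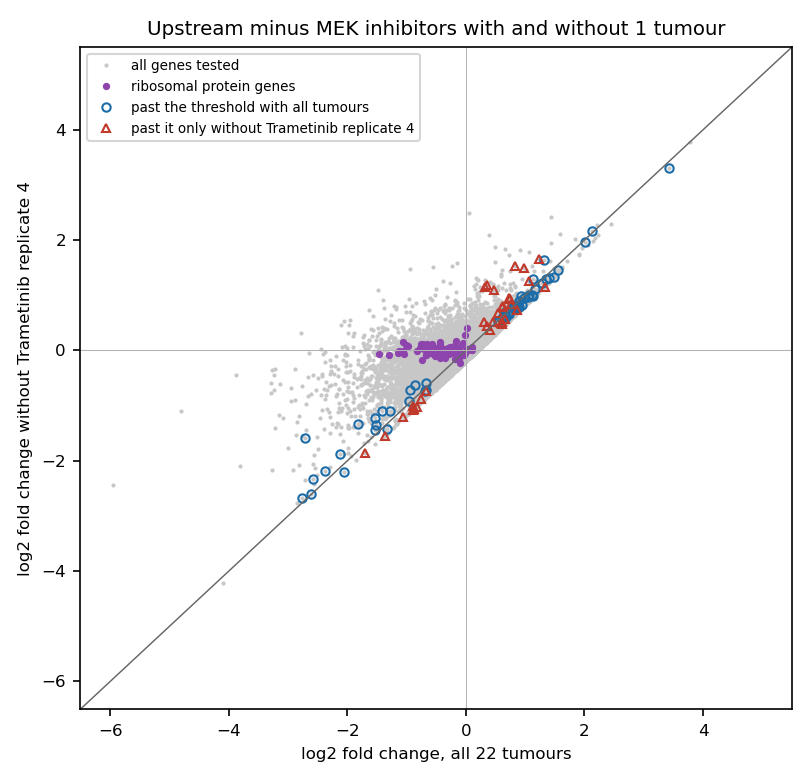
Pooled log2 fold change (upstream minus MEK inhibitors) of each tested gene with all 22 tumours (horizontal axis) and without Trametinib replicate 4 (vertical axis); the diagonal marks equal values. The 57 called genes (blue rings) lie on the same side of 0 in both fits, as do the 32 genes called only without that tumour (red triangles), and the ribosomal protein genes (purple) centre on 0 on the vertical axis.

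The count of called genes varied with the pair of drugs compared. RMC-7977 differed from Trametinib in 72 genes (0.408% of those tested) and from Cobimetinib in 49 (0.278%), whereas RMC-4550 differed from Cobimetinib in 5 (0.0283%) and from Trametinib in 0 (edgeR). For RMC-4550 minus Trametinib, 2177 genes passed an unadjusted p under 0.05, and DESeq2 called 167, limma 3733 and edgeR with a GC correction 2. Without Trametinib replicate 4 these counts were 28 for RMC-7977 minus Trametinib (0.156%), 202 for RMC-7977 minus Cobimetinib (1.12%), 90 for RMC-4550 minus Cobimetinib (0.501%) and 0 for RMC-4550 minus Trametinib (1273 unadjusted). RMC-7977 differed from RMC-4550 in 16 genes (0.0906%), or 105 (0.584%) without that tumour. Trametinib differed from Cobimetinib in 0 genes with and without it (2955 and 1648 unadjusted), while DESeq2 called 146, limma 6600 and edgeR with a GC correction 0 with it.

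TSC22D3, a leucine zipper protein induced by glucocorticoids and FOXO factors, was high under 1 upstream drug. It had 582, 459, 376 and 457 CPM in RMC-7977 tumours and 92.6, 113, 118 and 138 CPM in RMC-4550 tumours, against 158, 182, 159.6 and 82.7 CPM in Trametinib tumours and 91.8, 151, 113 and 156 CPM in Cobimetinib tumours. The RMC-7977 tumours stood far above all others, and the RMC-4550 tumours lay within the MEK inhibitor range. The pooled difference was 0.77 ± 0.19 and did not pass (edgeR adjusted p = 0.106), while RMC-7977 exceeded RMC-4550 by 2.02 ± 0.28 (adjusted p = 0.00426), Trametinib by 1.69 ± 0.28 (adjusted p = 0.0271) and Cobimetinib by 1.87 ± 0.28 (adjusted p = 0.00446). RHOA, a small GTPase that organises the actin cytoskeleton, was of the same kind but passed the pooled contrast, with 897, 1067, 907 and 779 CPM in RMC-7977 tumours and 445, 401, 446 and 370.4 CPM in RMC-4550 tumours, against 443, 462, 500.3 and 309 CPM in Trametinib tumours and 344, 339, 369 and 418 CPM in Cobimetinib tumours. Its pooled difference was 0.63 ± 0.12 (adjusted p = 0.0246), although RMC-4550 differed from Trametinib by −0.04 ± 0.17 and from Cobimetinib by 0.18 ± 0.17 (adjusted p = 0.942 and 0.961); leaving out 1 tumour ended the call in 7 of the 22 fits, at up to 0.0653.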

How the data were processed

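Bulk RNA of 22 H2110 xenograft tumours was sequenced from dUTP strand-specific libraries, per the labels' protocols. The deposited table gives unnormalised counts for each of 58735 genes, made by the authors with fastp, HISAT2 2.0.5 and featureCounts 1.5.0-p3 on hg38, per the submitters' processing notes, which also name DESeq2 1.20.0 and edgeR 3.22.5. All gene positions equal those of GENCODE 29. Strand setting, multi-mapping reads and host reads: how each was handled is not given in the sources used here. Libraries held 7761987 to 17265754 counts, and 0 count columns lacked a sample.

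Genes with enough counts (filterByExpr, minimum count 10) were fitted with edgeR 4.0.16 in R 4.3.3, with TMM scaling, 5 group means and robust quasi-likelihood F-tests, on all 22 tumours. The 17652 genes tested hold 99.718% of the counts, and the biological coefficient of variation was 0.3684. The main contrast was the mean of the RMC-7977 and RMC-4550 effects minus the mean of the Trametinib and Cobimetinib effects; the stricter test took the largest p of the 4 pairwise contrasts. P-values were 2-sided and adjusted by Benjamini-Hochberg over all genes tested, with a threshold of 0.05. CPM values use TMM-scaled library sizes; fold changes are log2 ± SE. The fit was tested on simulated data. Alternatives used DESeq2 1.42.0 and limma 3.58.1, other scalings, filters, sets of libraries, a replicate block and a GC correction.

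Named genes were the called protein-coding genes whose classes did not overlap, with a mean log2 CPM of at least 2, up to 12 each way and filled to 6 lower genes by unadjusted p, the same without Trametinib replicate 4, up to 4 called members of each gene list, and a set list of pathway genes. Genes outside this rule are said to be so, apart from overlapping genes and cell type markers given by counts. Not every gene the rule takes is reported here. The members and lists were chosen with earlier results of these data known. Promoter sequence is from RefSeq (GRCh38.p14).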

Additional observations from a re-analysis of the deposited data

Results flagged for a closer look

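In 31 named genes, 155 groups of 4 to 6 tumours were checked for a tumour far from the rest of its group by Dixon's test, which flags about 1 group in 20 by chance; 15 were flagged. In the upstream arm, CD36 stood out in RMC-4550 replicate 1, at 494 CPM against 203 to 214 CPM in the other 3 tumours. SYTL5 stood out in RMC-7977 replicate 1, at 37.1 CPM against 30.02 to 30.94 CPM. STEAP4 was low in RMC-4550 replicate 3 (232 CPM, against 353.5 to 360.0), HGD in RMC-4550 replicate 4 (122 CPM, against 161 to 165), and PALLD in RMC-7977 replicate 3 (86.2 CPM, against 106 to 109). OASL was low in RMC-4550 replicate 2 (1.93 CPM, against 2.72 to 2.84), EMP3 in RMC-7977 replicate 1 (1.14 CPM, against 3.01 to 3.46) and SOCS2 in RMC-4550 replicate 2 (6.44 CPM, against 12.2 to 12.8). Each of these 8 values left the gene's upstream tumours on their side of the MEK inhibitor tumours, except for SOCS2.

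In the MEK arm, 5 of the 6 flags fell on Trametinib replicate 4: SYTL5 at 3.84 CPM (13.1 to 15.4 in the other 3 tumours), GCNT3 at 48.2 CPM (4.07 to 5.35), DUSP6 at 0 CPM (2.79 to 4.15), ZDHHC23 at 22.9 CPM (74.6 to 82.2) and SOCS2 at 10.7 CPM (4.44 to 5.14). The other was HERC5 in Trametinib replicate 2 (8.42 CPM, against 13.8 to 14.9). In Vehicle, MAP3K8 was high in replicate 2, at 57.0 CPM against 35.4 to 40.6 CPM in the other 5 tumours.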

How the results depend on the processing

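The count of genes called between the upstream drugs and the MEK inhibitors, 57, moved with the choice of libraries and tool. It was 106 without Trametinib replicate 4 and RMC-7977 replicate 3, and 459 without these, RMC-4550 replicate 1 and Vehicle replicate 1. It was 278 with DESeq2 (133 higher, 145 lower), 1706 with limma voom and library weights, 28 with no filter on low counts, and 0 when tested against a minimum log2 change of 0.5. Leaving out 1 tumour gave 16 to 85 calls. With total counts and no scaling factors it was 42, of which 52.38% were higher, against 64.91% of the 57. Without the filter the median of all genes was −0.11, and fold changes there are relative to it. With RLE scaling, a minimum mean of 1 CPM, a GC correction or the drug groups alone the count stayed within 1.5 times. The genes did not all stay: with the GC correction 42 of the 57 did, and EMP3 (adjusted p = 0.0672), HDAC9, FBXO32, SOCS2, XBP1, MAP3K8 and MRC1 (0.052 to 0.0545) did not. With the drug groups alone 34 did, and MAP3K8, HDAC9, AXL, SOCS2, HSPB1 and XBP1 (0.0555 to 0.1135) did not. No called gene named here reversed its sign in any setting, whereas CCND1, NRAS, PTPN11 and MAP2K2, which were not called, lay on either side of 0, and the strict test called 0 genes in each of the 36 settings. The labels do not say that same-numbered tumours belong together, and their correlations were mixed. These ran from 0.08 to 0.38 for RMC-7977 with Cobimetinib but from −0.31 to −0.0006 for RMC-7977 with Trametinib. With Vehicle, 3 pairs each, they were 0.17 to 0.71 for RMC-4550 and 0.14 to 0.20 for Trametinib, but −0.23 to 0.03 for RMC-7977 and −0.26 to 0.13 for Cobimetinib. A replicate block left 15 calls (12 higher, 3 lower), among them SYTL2, CD36, SYTL5, MYO16, STEAP4, MILR1 and OASL, and 37 with a GC correction. Under the block alone ETV4, ETV5, LAPTM5, HERC5, EMP3, HGD, SPATS2L, PEG10, PALLD, MAP3K8, HDAC9, RHOA, AXL, FBXO32, SOCS2, HSPB1, XBP1 and MRC1 did not pass, with adjusted p-values of 0.06 (SOCS2) to 0.1524 (MRC1). Genes near 1 CPM, such as SPRY4, rest on few counts: 3 counts are 0.171 to 0.48 CPM here. The upper limits given for tumours without counts cover counting error only. The SE of the fold changes come from the fit and include the spread between tumours.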

Other observations

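Several called genes outside the naming rule, chosen here after their values were seen, were called in all or nearly all fits that left out 1 tumour. FAM177B, a gene of unknown function, had 61.5, 59.6, 34.9 and 56.8 CPM in RMC-7977 tumours and 32.1, 21.5, 23.6 and 27.8 CPM in RMC-4550 tumours, against 16.5, 22.2, 28.3 and 12.3 CPM in Trametinib tumours and 7.88, 10.6, 9.25 and 12.7 CPM in Cobimetinib tumours, and a log2 difference of 1.39 ± 0.21 (edgeR adjusted p = 0.00854). The RMC-7977 tumours lay above all MEK inhibitor tumours, and the RMC-4550 tumours overlapped the Trametinib tumours. ARID5B, a DNA-binding protein of chromatin complexes, had a difference of 0.80 ± 0.12 (adjusted p = 0.00854) and was highest under RMC-4550, at 48.7 ± 10.1 CPM, with 34 ± 6.19 CPM under RMC-7977, against 24.9 ± 1.46 CPM under Trametinib and 21.9 ± 2.22 CPM under Cobimetinib (SD, n = 4 each). SCIN, an actin-severing protein, had a difference of 0.89 ± 0.16 (adjusted p = 0.0149) and MUC15, a membrane mucin, one of 1.55 ± 0.27 (adjusted p = 0.0149). VSIG1, an adhesion protein of epithelial junctions, was lower in all 8 upstream tumours, at 0 to 0.772 CPM against 0.878 to 3.84 CPM in the MEK inhibitor tumours, and its difference was −2.59 ± 0.45 (adjusted p = 0.0149). All 5 were called in each of the 22 fits without 1 tumour.

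The aldehyde dehydrogenase genes ALDH1A1, which oxidises retinaldehyde, and ALDH3A1 were both higher in the upstream tumours. ALDH1A1 had 52.6, 48.3, 14.3 and 24.3 CPM in RMC-7977 tumours and 17.7, 28.9, 44 and 26.7 CPM in RMC-4550 tumours, against 14.1, 18.8, 13.8 and 11 CPM in Trametinib tumours and 6.64, 3.17, 3.26 and 4.33 CPM in Cobimetinib tumours. The upstream tumours overlapped the Trametinib tumours and lay above all Cobimetinib tumours, and the log2 difference was 2.01 ± 0.36 (edgeR adjusted p = 0.0149), lost in 1 of the 22 fits without 1 tumour, that without RMC-7977 replicate 1 (adjusted p = 0.0534). ALDH3A1 had 153, 197, 99.3 and 201 CPM in RMC-7977 tumours and 82.4, 106, 75.8 and 115 CPM in RMC-4550 tumours, against 64.3, 70.9, 82 and 35 CPM in Trametinib tumours and 46.1, 53.6, 38.5 and 72 CPM in Cobimetinib tumours, with a difference of 1.11 ± 0.21 (adjusted p = 0.0232) that was lost in 7 of the 22 fits without 1 tumour, at up to 0.0677. RMC-7977 exceeded RMC-4550 by 0.78 ± 0.30 in ALDH3A1, with an adjusted p of 0.466.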
